A study of Mus musculus with 12 samples.

Results

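Azoxymethane (AOM) is an injected colon carcinogen, and the arrays described here compare colon epithelium of mice given repeated AOM with epithelium of control mice. The comparison holds the 3 arrays labelled AOM and the 3 labelled control, 6 of the 12 arrays of the study. All mice were female BALB/c animals of 5 to 7 weeks, and epithelium of the distal colon was taken on day 100. AOM mice received 10 mg/kg into the peritoneum each week, 6 times, starting on day 1, and no dextran sulfate sodium (DSS), the drinking-water agent that causes colitis. The labels name no treatment for the controls. Epithelium of both groups was collected by scraping with a slide and placed in Trizol. Of the other 6 arrays, 3 hold epithelium scraped in the same way after 3 cycles of DSS, each of 5 days in 21. The remaining 3 hold neoplasms of mice given AOM once at 12.5 mg/kg before the same DSS cycles (AOM/DSS), clipped with scissors and kept in an RNA storage solution. The labels report tumours for the AOM/DSS mice and do not say whether the AOM mice carried any. Nor do they state that each array of a group holds a different mouse, so a p-value here reflects the variation among these arrays and may cover technical variation alone.

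AOM is converted in the body to an agent that methylates DNA, and the lesions are removed by direct reversal, base excision repair and mismatch repair. In the colon crypt, Wnt ligands keep stem and progenitor cells dividing: beta-catenin enters the nucleus and, with TCF/LEF factors, switches on target genes, several of which inhibit the pathway in turn. Cells that leave the crypt base stop dividing and become absorptive colonocytes, mucus-making goblet cells, hormone-making enteroendocrine cells or chemosensory tuft cells.

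The stretches just upstream of 4 genes are printed because their gene groups, Wnt-induced transcription factors and mitosis genes, held 14 of 23 and 19 of 24 tested members called higher. Of all tested genes with a symbol, 19.6% were called higher. Of the 23 and 24 members, 3 and 1 were not well above background on any control array, Sp5 among them, and entered the test through their AOM signal. Each stretch is the 250 bases before the annotated start, on the gene's own strand, 5′ to 3′, from RefSeq for GRCm38.p6. Capitals mark, for Sp5 and Mycn, the TCF/LEF motif (CTTTGAT or CTTTGAA, either strand). For Cdc20 and Cdk1 they mark the cell cycle homology region, CHR (TTTGAA, either strand), and the CCAAT box (CCAAT, either strand). Every CTTTGAA also holds the CHR letters.
Sp5, chr2:70474673-70474922, plus strand: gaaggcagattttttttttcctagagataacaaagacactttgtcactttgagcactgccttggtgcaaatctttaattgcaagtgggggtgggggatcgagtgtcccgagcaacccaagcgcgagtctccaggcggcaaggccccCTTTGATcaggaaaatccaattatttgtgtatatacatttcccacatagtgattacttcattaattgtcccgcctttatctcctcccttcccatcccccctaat
Mycn, chr12:12941837-12942086, minus strand: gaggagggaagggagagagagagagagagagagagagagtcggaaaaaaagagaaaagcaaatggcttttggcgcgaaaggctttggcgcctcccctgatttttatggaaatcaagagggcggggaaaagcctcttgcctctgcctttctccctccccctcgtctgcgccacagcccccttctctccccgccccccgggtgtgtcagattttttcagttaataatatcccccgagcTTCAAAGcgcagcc
Cdc20, chr4:118437344-118437593, minus strand: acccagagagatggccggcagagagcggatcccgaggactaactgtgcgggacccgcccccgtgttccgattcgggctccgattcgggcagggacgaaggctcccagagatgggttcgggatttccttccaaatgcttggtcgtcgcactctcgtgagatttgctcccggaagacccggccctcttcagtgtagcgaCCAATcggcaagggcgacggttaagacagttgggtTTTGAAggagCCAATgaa
Cdk1, chr10:69352913-69353162, minus strand: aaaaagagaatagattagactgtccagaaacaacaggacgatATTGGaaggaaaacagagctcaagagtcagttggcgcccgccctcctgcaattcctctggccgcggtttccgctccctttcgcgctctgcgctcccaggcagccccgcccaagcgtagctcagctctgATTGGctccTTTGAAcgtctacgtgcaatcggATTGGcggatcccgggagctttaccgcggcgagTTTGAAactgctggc
The TCF/LEF motif stood in 4 of the 10 Wnt-induced transcription factor and growth genes that were called higher and have an entry in the promoter table, namely Sp5, Mycn, Tiam1 and Tnfrsf19 (40%), and in 6.67% of the 10176 tested genes with an entry. Over the 16 tested members of that list with an entry the share was 25%. None of the 6 Wnt inhibitor genes with an entry held it. Of the mitosis genes with an entry, 3 of the 13 called higher held it (23.1%), and 3 of the 18 tested (16.7%). In a window of 100 bases it stood in 2 of the 10 Wnt-induced genes called higher (20%), against 2.03% of the genes tested. The CCAAT box stood in 12 of 13 mitosis genes called higher (92.3%) against 40% of the genes tested, and in 17 of the 18 members tested (94.4%). The CHR stood in 5 of the 13 (38.5%) and in 7 of the 18 (38.9%) against 13.1%. Cdc20 has 1 CHR and 2 CCAAT boxes in its window, and Cdk1 has 2 and 3. These are counts of letters, with no measurement of binding.

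Levels below are log2 processed signals relative to the 75th percentile of the same array, so 0 is that percentile and 1 unit is a doubling of signal. They are given for replicates 1, 2 and 3 in that order. Differences are AOM minus control on the same log2 scale, ± is the standard error of the fitted difference with n = 3 arrays in each group, and adjusted p is limma's, after Benjamini-Hochberg adjustment over all genes tested. A gene is said to have risen or fallen when its adjusted p was under 0.05. A gene may not be well above background on any AOM or any control array. Its difference is then given as a lower bound, "at least" so many fold. Each dim array counts at the dimmest signal of any probe well above background on it, or at the gene's signal where brighter. The bound holds on this signal scale only, and with another background correction, normexp, some of these differences were smaller or changed sign. The adjusted p beside a bound is that of the full fitted difference.

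The 75th percentile of processed intensity was 454, 669 and 694 on the AOM arrays and 393, 482 and 677 on the control arrays. The share of probes well above background was 54.3 to 58.9% on AOM arrays and 52.8 to 55.3% on control arrays, and no probe was saturated. All 14 epithelial markers were well above background in both groups, with Cldn4 called higher (2.44), Tjp1 called lower (-1.24), 12 not called and 9 of the 14 differences negative. The adhesion molecule Epcam read 4.82, 4.68 and 5.21 in AOM and 5.59, 4.97 and 4.92 in control (difference -0.26 ± 0.26, adjusted p = 0.44). Of 16976 genes tested, 6071 were called (35.8%), 2883 higher (17%) and 3188 lower (18.8%) in AOM. All AOM values lay above all control values for 4154 genes (24.5%) and below them for 4463 (26.3%). Genes on the lists all carry a symbol, and of the genes with a symbol 19.6% were called higher and 14.2% lower. Those shares are the background for the list counts that follow. The median difference was 0.03 over all genes tested, 0.15 over the 12724 with a gene symbol and -0.49 over the 4252 without. Scaling to the array median moved the all-gene median to 0.20, and normexp background correction moved it to -0.12.

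The arrays are not alike within groups. AOM replicate 1 lay between control and the other AOM arrays for many of the genes below, and its levels correlated most closely with DSS replicate 2 (r = 0.976 over the genes tested, against 0.962 with AOM replicate 2 and 0.952 with AOM replicate 3). Control replicate 3 correlated most closely with DSS replicate 1 (r = 0.968, against 0.942 and 0.926 with control replicates 1 and 2). Control replicate 3 stood apart from control replicates 1 and 2 in the stromal and pancreatic markers described further on. The count of called genes was 4815 without AOM replicate 1, 2658 without AOM replicate 2, 3898 without AOM replicate 3, 2794 without control replicate 1, 3311 without control replicate 2 and 6302 without control replicate 3, and 30 (0.177%) without control replicates 1 and 2 together. The file headers place AOM replicates 1 and 2 on a slide with AOM/DSS replicates 1 and 2, AOM replicate 3 on the slide of the 3 DSS arrays, and all controls on a slide with AOM/DSS replicate 3. AOM and control therefore shared no slide, and within-slide values of their difference do not exist. With slide as a block, which links the controls to AOM only through AOM/DSS replicate 3, 5 genes were called (0.0295%) against 3183 at an unadjusted p under 0.05. The 5 were Afp and Zbtb46, higher, and Slc26a3, Sult1a1 and Maob, lower; Zbtb46 and Maob lay outside the rule for named genes and were chosen after their values were seen, and Zbtb46 was not called in the fit of all 12 arrays without the block (difference 1.22 ± 1.04, adjusted p = 0.37) but was in a fit of only the 6 arrays (adjusted p = 0.011), and was at -0.87 with normexp background correction. Slide and group cannot be told apart for AOM against control. Calls made with the block rest on AOM/DSS replicate 3, a neoplasm array, and do not free a gene from this limit. Under normexp background correction 2826 genes were called, and of the 93 called genes named here 39 lost their call and 4 changed sign, as given beside them. Genes entered the test when well above background on all arrays of AOM or of control, so a gene dim on every control array entered through its AOM signal and had to differ. Likewise, a gene dim on every AOM array entered through its control signal and had to come out lower. Ugt1a1, Pax6, Defb1, Cela3b, Cyp2c39 and Slc30a10 below are such genes. The counts and medians of lists that hold such genes are descriptions only. Called genes given below with a difference or a bound and no remark kept their call when each of the 6 arrays was left out in turn.

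Wnt pathway inhibitors and feedback genes, some of them targets of the pathway, were higher in AOM at 5 of the 13 members tested, and 1 was lower. Nkd1, an intracellular inhibitor that binds Dishevelled, read -0.37, 4.12 and 4.18 in AOM and -4.65, -4.20 and -1.87 in control, a difference of 6.22 ± 1.10 (adjusted p = 0.0053). Notum, a secreted enzyme that inactivates Wnt ligands, read -3.45, 1.49 and 1.13 in AOM and -5.71, -5.97 and -6.10 in control, where no array was well above background, at least 12.6-fold higher (adjusted p = 0.0054). Wif1, which binds Wnt ligands outside the cell, read 0.16, 4.72 and 4.62 in AOM and -2.54, -3.02 and -1.84 in control, a difference of 5.63 ± 0.96 (adjusted p = 0.0048). In all 3 genes AOM replicates 2 and 3 lay close together and far above every control, and replicate 1 lay between them and the controls without overlapping the controls. For Notum, dim on every control array, the lack of overlap follows from how it entered the test.

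Other feedback genes split AOM replicate 1 from the other AOM arrays altogether. Axin2, the scaffold of the complex that degrades beta-catenin and a widely used readout of the pathway, read -2.49, -0.03 and 0.68 in AOM and -2.57, -1.19 and -2.65 in control (difference 1.52 ± 0.68, adjusted p = 0.099). Rnf43, a ubiquitin ligase that removes Wnt receptors, read 2.07, 3.88 and 3.81 against 2.00, 2.70 and 2.09 (difference 0.99 ± 0.44, adjusted p = 0.097). In both genes AOM replicate 1 lay within the control range and the other AOM arrays above it. Without AOM replicate 1 both were called, Axin2 with a difference of 2.46 (adjusted p = 0.0086) and Rnf43 with one of 1.58 (adjusted p = 0.0099). Notum was not called with normexp background correction, at a difference of 1.82. The list's median difference was 1.35, or 0.99 with its 2 members that were dim on every control array at their bound. It was 0.77 without AOM replicate 2, 0.87 without AOM replicate 3, 0.86 without control replicate 1 and 0.27 with slide as a block, and relative to all genes it ran from 0.19 to 1.36 over the scalings. Of its 6 calls, 3 were made without AOM replicate 2, AOM replicate 3, control replicate 1 or control replicate 2, each in turn. Dkk1, Dkk2 and Dkk4, secreted inhibitors, were not well above background on all arrays of either group and were not tested.

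Among 19 Wnt ligands and receptors tested, 7 were higher and 2 lower. Wnt10a, a canonical ligand, read -0.35, 2.58 and 2.74 in AOM and -4.67, -4.35 and -3.52 in control, a difference of 5.84 ± 0.73 (adjusted p = 0.0024). Wnt6 read -1.43, 1.71 and 1.55 against -2.82, -3.16 and -2.68, a difference of 3.50 ± 0.68 (adjusted p = 0.0067) that was 1.82 and not called with normexp background correction. Wnt3, the ligand known from the crypt base, read -3.10, -2.76 and -3.47 in AOM, was not well above background on any control array, and was at least 1.77-fold higher (adjusted p = 0.0038), but with normexp background correction its difference was -0.57 (adjusted p = 0.55). Wnt3 was the ligand among these in which AOM replicate 1 lay with the other AOM arrays. Lrp6, the co-receptor for Wnt ligands, fell: it read -1.32, -1.59 and -1.73 in AOM and 0.71, 0.08 and -0.25 in control, with a difference of -1.73 ± 0.36 (adjusted p = 0.0087). Control replicate 1 was the highest and control replicate 3 the lowest control, and no AOM array reached it. The list's median minus that of all genes ran from -0.14 to 1.03 over the scalings tried, so it has no settled direction as a group, and its 9 calls were 5 without AOM replicate 2, control replicate 1 or control replicate 2.

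**Figure D1:**
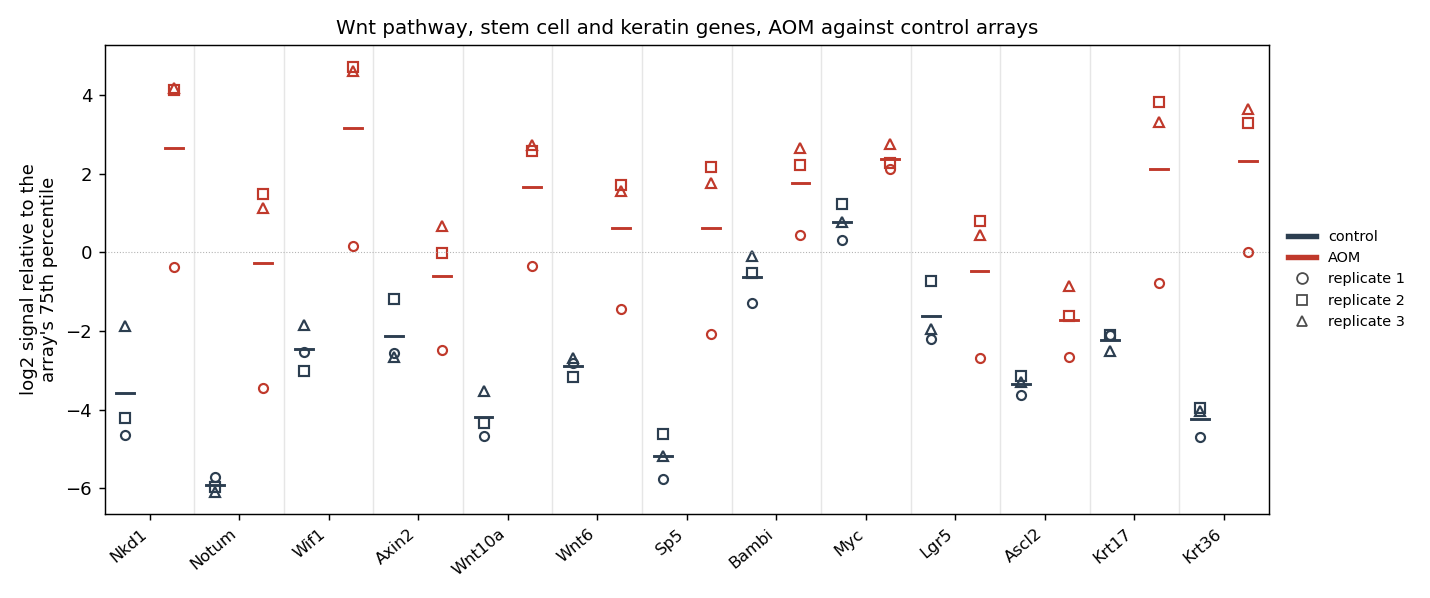
Levels (log2 signal relative to the array's 75th percentile, vertical axis) of 13 Wnt pathway, stem cell and keratin genes (horizontal axis) on the 3 control (dark) and 3 AOM (red) arrays; symbols mark replicates and bars group means. In Nkd1, AOM replicate 1 at -0.37 lies between the controls and the other AOM arrays at 4.12 and 4.18, whereas the 3 AOM values of Myc lie within 2.12 to 2.76.

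Of 23 Wnt-induced transcription factors and growth genes tested, 14 were higher and 2 lower in AOM, with a median difference of 1.61 (1.12 with 3 dim members at their bound). Relative to all genes the median ran from 0.83 to 1.58 over the scalings. The 2 lower members were Tcf7l2 (-1.53) and Met (-0.87). Among members not called were Sox9 (0.32), Ccnd2 (0.19), Ephb2 (0.47) and Ephb3 (0.77). On the other Wnt lists, Apc (-1.03) and Fzd5 (-1.53) were called lower. These lower genes are outside the 93 named genes, and their calls without single arrays are not reported here. Sp5, a transcription factor induced directly by beta-catenin, read -2.07, 2.17 and 1.77 in AOM, was not well above background on any control array, and was at least 23.6-fold higher (adjusted p = 0.0043). Tnfrsf19, a receptor of cycling crypt cells, read -2.18, 0.17 and 0.13 against -5.18, -5.12 and -2.33, a difference of 3.58 ± 0.79 (adjusted p = 0.01). Myc, the growth-promoting transcription factor, read 2.12, 2.27 and 2.76 in AOM and 0.31, 1.22 and 0.77 in control, a difference of 1.61 ± 0.37 (adjusted p = 0.011). Unlike Sp5 and Tnfrsf19, Myc was about equally high on all 3 AOM arrays. Cd44, a hyaluronan receptor of proliferating crypt cells, behaved as Myc did, at 2.49, 2.37 and 2.61 against 0.24, 0.17 and 1.49 (difference 1.85 ± 0.34, adjusted p = 0.0059). Sox4, Sox17 and Bambi were also called higher, with Bambi, a decoy receptor for BMP and TGF-beta signals, at 0.44, 2.22 and 2.66 against -1.28, -0.52 and -0.09 (difference 2.40 ± 0.53, adjusted p = 0.0099). Mycn, whose upstream stretch is printed above, read -1.54, -0.57 and -0.69 against -5.60, -2.60 and -2.45 (difference 2.62 ± 0.69, adjusted p = 0.018), with adjusted p = 0.062 without AOM replicate 2, 0.051 without AOM replicate 3 and 0.061 in a fit of only the 6 arrays. Tiam1, an activator of Rac with the same motif upstream, rose by 0.80 (adjusted p = 0.024), with adjusted p between 0.051 and 0.086 without AOM replicate 1, 2 or 3 or control replicate 1. Sp5 (2.38), Tnfrsf19 (0.88), Sox4 (1.36), Sox17 (0.97), Mycn (0.25) and Tiam1 (0.38) were not called with normexp background correction. The 16 calls of the list were 10 without AOM replicate 2.

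Of 16 stem cell genes tested, 3 were higher and 2 lower. Ascl2, the transcription factor that maintains crypt stem cells, rose, at -2.67, -1.61 and -0.85 in AOM and -3.64, -3.14 and -3.29 in control (difference 1.65 ± 0.38, adjusted p = 0.011), but its difference was -0.07 (adjusted p = 0.94) with normexp background correction. Lgr5, the receptor that marks these cells, read -2.69, 0.80 and 0.43 in AOM and -2.21, -0.72 and -1.94 in control (difference 1.14 ± 0.91, adjusted p = 0.34). AOM replicate 1 was the lowest of the 6 arrays for Lgr5 and the other AOM arrays were the highest, and without AOM replicate 1 it was called (difference 2.24, adjusted p = 0.043). Aqp4, a water channel of crypt-base cells, fell, at 2.05, 2.00 and 2.17 in AOM and 3.72, 5.07 and 3.91 in control (difference -2.17 ± 0.52, adjusted p = 0.013), and was not called with normexp background correction (-1.58). Without AOM replicate 1 the calls numbered 11 in place of 5, and without AOM replicate 2 or control replicate 1 they numbered 3.

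Of 24 mitosis genes tested 19 were higher, none was lower, and the median difference was 2.10. Relative to all genes the median ran from 1.10 to 2.07 over the scalings. Cdc20, the activator of the anaphase-promoting complex, read 3.56, 3.96 and 3.69 in AOM and 0.82, 1.41 and 1.66 in control, a difference of 2.44 ± 0.37 (adjusted p = 0.0038). Plk1, a mitotic kinase, read 2.87, 3.38 and 3.20 against 0.12, 0.85 and 0.97, a difference of 2.50 ± 0.39 (adjusted p = 0.0039). Cdk1, the kinase that drives entry into mitosis, read 0.07, 0.80 and 0.57 against -2.52, -1.95 and -1.36, a difference of 2.42 ± 0.42 (adjusted p = 0.005). Here AOM replicate 1 lay close to the other AOM arrays, and control replicate 1 was the lowest control in each of the 3 genes. The proliferation antigen Mki67 did not separate the groups, at 1.91, 2.53 and 2.62 in AOM and 0.90, 2.07 and 2.85 in control (difference 0.41 ± 0.43, adjusted p = 0.46). The mean deviation of the list was -1.57 in control replicate 1, -0.74 in control replicate 2 and -0.36 in control replicate 3, against 0.44, 1.21 and 1.03 in AOM.

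DNA replication genes were higher at 18 of 24 tested and lower at 1, with a median difference of 1.28. Gins2, a subunit of the replicative helicase, read 0.09, 0.39 and 0.21 in AOM and -2.71, -1.46 and -1.62 in control, a difference of 2.16 ± 0.39 (adjusted p = 0.0058) that was 1.05 and not called with normexp background correction. Tk1, which salvages thymidine, read 2.65, 3.12 and 2.48 against -0.03, 1.28 and 0.82, a difference of 2.06 ± 0.40 (adjusted p = 0.0069). Of the 19 calls, 12 were made without AOM replicate 2 and 8 without control replicate 1, the lowest control for both genes. Ribosome biogenesis genes were higher at 11 of 22 and lower at 1, with a median difference of 0.87. The snoRNP methyltransferase Fbl read 5.34, 5.27 and 5.42 against 3.57, 4.33 and 4.15, a difference of 1.33 ± 0.31 (adjusted p = 0.012). The ribosome assembly factor Pes1 read 3.06, 3.35 and 3.08 against 1.71, 2.19 and 2.13, a difference of 1.15 ± 0.23 (adjusted p = 0.007). Both were even across the AOM arrays, and the 12 calls of the list were 7 without AOM replicate 2 and 6 without control replicate 1.

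Genes of mature absorptive colonocytes were lower in AOM: 12 of 24 tested fell, none rose, and the median difference was -0.99. The median was -1.50 with slide as a block, and relative to all genes it ran from -1.15 to -0.40 over the scalings. Slc5a8, the transporter that takes up butyrate with sodium, read 0.92, 0.64 and 0.94 in AOM and 4.02, 4.06 and 3.84 in control, a difference of -3.14 ± 0.34 (adjusted p = 0.002). Slc26a2, a sulfate transporter, read 2.30, 1.65 and 1.91 against 4.0, 3.87 and 3.74, a difference of -1.92 ± 0.30 (adjusted p = 0.0041). Slc26a3, which exchanges chloride for bicarbonate, read 2.21, 1.70 and 2.07 against 5.97, 4.80 and 5.35, a difference of -3.38 ± 0.93 (adjusted p = 0.021). In these 3 genes the AOM arrays were tightly grouped, replicate 1 included, and every one lay below every control. For Slc26a3 the adjusted p was 0.065 without AOM replicate 2 and 0.07 without control replicate 1. The fit with a slide block, whose only link to the controls is AOM/DSS replicate 3, also called it, at -7.61 (adjusted p = 0.025). Slc16a1, which carries butyrate and lactate, fell by 1.44 ± 0.33 (adjusted p = 0.012 and not called with normexp background correction, at -0.93), and Tmigd1, a brush border adhesion protein, fell by 2.25 ± 0.47 (adjusted p = 0.0087). The water channel Aqp8 read 7.37, 5.93 and 5.79 against 8.80, 8.38 and 7.79 (difference -1.95 ± 0.95, adjusted p = 0.13), and the surface keratin Krt20 read 7.40, 6.75 and 6.91 against 8.49, 7.85 and 7.10 (difference -0.79 ± 0.36, adjusted p = 0.1, or -1.14 and 0.025 without control replicate 3). The list's 12 calls were 6 without AOM replicate 2 or control replicate 1 and 7 without control replicate 2.

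Goblet cell genes were lower at 5 of 17 tested, with a median difference of -0.91 that was -2.17 with slide as a block and, relative to all genes, -1.07 to -0.21 over the scalings. Sytl2, which tethers secretory granules, read -0.09, 0.03 and 0.54 in AOM and 1.90, 1.94 and 1.85 in control, a difference of -1.74 ± 0.31 (adjusted p = 0.0056). The main gel-forming mucin Muc2 read 6.62, 5.86 and 5.81 against 7.76, 7.77 and 6.76 (difference -1.33 ± 0.58, adjusted p = 0.093), with every AOM array below every control. The goblet count was 1 without AOM replicate 2, 2 without control replicate 2, and 3 without AOM replicate 3 or control replicate 1. Atoh1, the transcription factor that commits cells to secretory fates, read -1.49, -1.57 and -1.49 against 0.23, -0.12 and -0.82, a difference of -1.28 ± 0.33 (adjusted p = 0.016). Its adjusted p was 0.054 without AOM replicate 2, 0.062 without control replicate 1 and 0.05 without control replicate 2, the last of these not called, and with normexp background correction it was not called either (-1.0). Jag2, a Notch ligand, was at least 3.12-fold higher in AOM (adjusted p = 0.0063), and Lfng, which modifies Notch receptors, rose by 1.42 ± 0.30 (adjusted p = 0.0089). With normexp background correction neither was called, with a difference of 0.00 for Jag2 and 0.51 for Lfng. Over the 17 secretory lineage and Notch genes tested, 6 were higher and 1 lower, the median minus that of all genes ran from -0.17 to 0.66 over the scalings, and the calls were 3 without AOM replicate 2, 2 without control replicate 1 and 4 without control replicate 2.

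Enteroendocrine genes had a median difference of -0.04 (-0.20 to 0.19 when 1 array was left out), with 2 members higher and 1 lower of 18. The secretory granule protein Chga read 3.92, 3.20 and 3.18 in AOM and 3.66, 3.23 and 2.58 in control (difference 0.28 ± 0.41, adjusted p = 0.61). The members that moved were the hormone gene Cck, the neuropeptide gene Nts and the transcription factor Pax6. Cck read 0.12, -0.44 and -0.12 in AOM and -2.36, -2.04 and -2.57 in control, a difference of 2.18 ± 0.28 (adjusted p = 0.0024). Nts was at least 1.6-fold higher in AOM (adjusted p = 0.0058), with a difference of -0.37 (adjusted p = 0.74) under normexp background correction. Pax6 was well above background on every control array, on no AOM array, and at least 3.5-fold lower (adjusted p = 0.0078). Cck (0.99) and Pax6 (-1.52) were not called with normexp background correction. Tuft cell genes were higher at 2 and lower at 2 of 10, and the lower ones include the taste channel Trpm5, at -3.32, -3.87 and -4.86 against -1.89, -1.91 and -2.35 (difference -1.96 ± 0.38, adjusted p = 0.0067). Of the 4 tuft cell calls, 1 was made without AOM replicate 2.

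Among 18 intestinal identity transcription factors tested, 6 fell and 1 rose. Vdr, the vitamin D receptor, read 3.02, 2.70 and 2.99 in AOM and 5.23, 4.69 and 4.36 in control, a difference of -1.85 ± 0.29 (adjusted p = 0.0039). Ppara, the fatty acid sensor, read -1.54, -1.69 and -1.22 against 0.33, 0.70 and 0.14, a difference of -1.87 ± 0.37 (adjusted p = 0.0075). In both genes every AOM array lay below every control. Isx, a homeobox repressor of vitamin A uptake genes, went the other way: it read -0.49, -0.64 and -0.40 in AOM, was not well above background on any control array, and was at least 10.7-fold higher (adjusted p = 0.0023). Vdr (-1.25) and Isx (1.21) were not called with normexp background correction. Cdx2, the homeobox factor that sets intestinal fate, read 4.07, 3.41 and 3.36 against 4.23, 4.50 and 3.83 (difference -0.57 ± 0.31, adjusted p = 0.16). The list's median minus that of all genes ran from -0.63 to 0.10 over the scalings, and its 7 calls were 4 without control replicate 1.

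**Figure D2:**
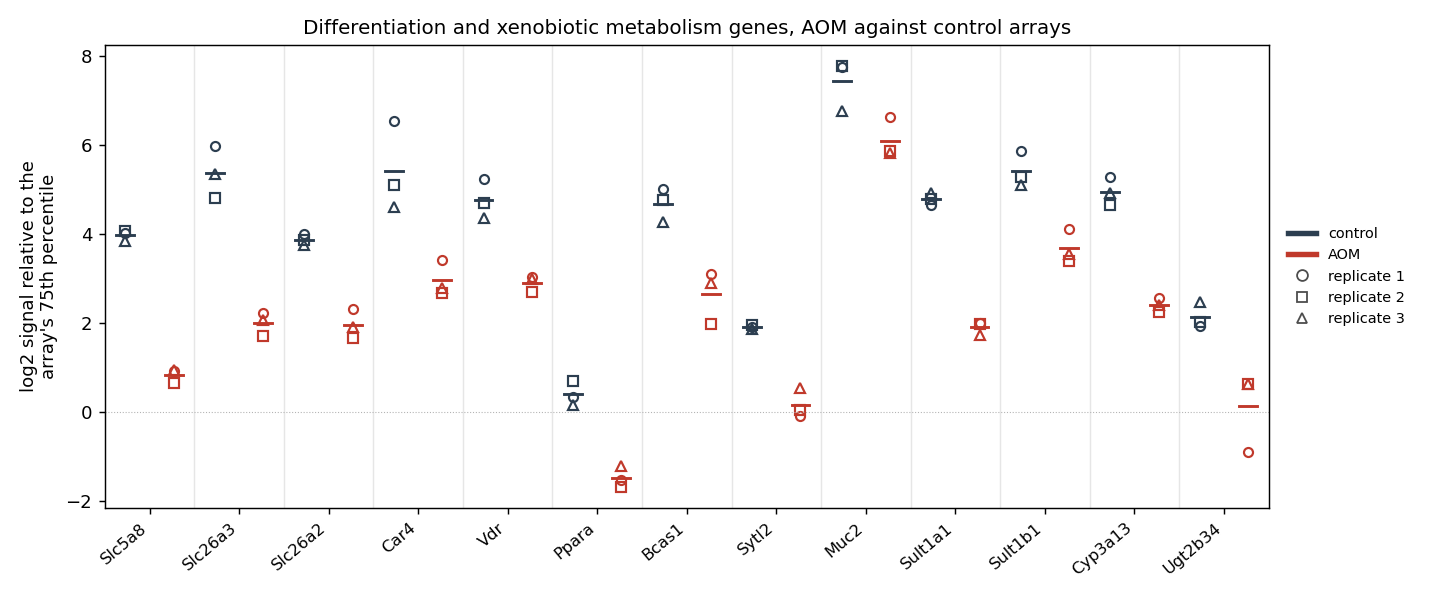
Levels (log2 signal relative to the array's 75th percentile, vertical axis) of 13 genes of differentiation and carcinogen metabolism (horizontal axis) on the 3 control (dark) and 3 AOM (red) arrays; symbols mark replicates and bars group means. The 3 AOM values of Slc5a8, 0.64 to 0.94, lie below the 3 control values, 3.84 to 4.06.

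Genes that activate or conjugate carcinogens and other foreign compounds were lower at 7 and higher at 2 of 19 tested, with a median difference of -0.50 that was -0.27 without AOM replicate 3 and -0.78 without control replicate 3. Sult1a1, which sulfonates phenols, read 2.00, 1.98 and 1.72 in AOM and 4.64, 4.79 and 4.91 in control, a difference of -2.88 ± 0.39 (adjusted p = 0.0028). It was also called with slide as a block, at -4.46 (adjusted p = 0.01). Cyp3a13, a cytochrome P450, read 2.56, 2.25 and 2.41 against 5.27, 4.65 and 4.91, a difference of -2.54 ± 0.58 (adjusted p = 0.011). Neither gene showed a separate AOM replicate 1. Ugt1a1, which adds glucuronic acid, was well above background on every control array and on no AOM array, at least 4.34-fold lower (adjusted p = 0.0018). It entered the test through its control signal. Ugt2b34 fell by 2.02 ± 0.40, Sult1b1 fell by 1.73 ± 0.28, the N-acetyltransferase Nat2 fell by 1.30 ± 0.25, and the alcohol dehydrogenase Adh1 fell by 1.28 ± 0.19. Sult1b1 (-1.15), Nat2 (-0.85) and Adh1 (-0.78) were not called with normexp background correction. Ephx1, the microsomal epoxide hydrolase, rose, at 1.60, 1.74 and 1.58 against -0.84, -1.31 and 0.19 (difference 2.29 ± 0.41, adjusted p = 0.0055). Cyp2e1, which activates AOM in the liver, was not well above background on all arrays of either group and was not tested.

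Repair genes for methylated DNA and mismatches were higher at 8 of 19 tested and none was lower, with a median difference of 0.38 that was 0.24 without AOM replicate 3. Apex1, the endonuclease that cuts at abasic sites, read 2.20, 3.01 and 2.84 in AOM and 0.33, 1.28 and 1.24 in control, a difference of 1.73 ± 0.33 (adjusted p = 0.0067). Pcna, the sliding clamp shared with replication, read 4.18, 4.26 and 4.49 against 2.67, 3.26 and 3.33, a difference of 1.23 ± 0.31 (adjusted p = 0.016), with adjusted p = 0.061 without control replicate 1. Mpg, the glycosylase that removes methylated purines, read 3.54, 3.70 and 3.03 against 2.72, 2.85 and 2.63 (difference 0.69 ± 0.26, adjusted p = 0.062, or 0.89 and 0.046 without AOM replicate 3). The groups did not overlap for Mpg. The 8 calls were 5 without AOM replicate 1, AOM replicate 3 or control replicate 3, 4 without AOM replicate 2 and 1 without control replicate 1. Of 18 p53 target genes tested, 4 were higher and 2 lower. The growth inhibitor Phlda3 rose, at 3.16, 3.63 and 3.84 against -1.04, -1.26 and 1.00 (difference 3.98 ± 0.63, adjusted p = 0.0041), and the stress gene Trp53inp1 fell by 1.39 ± 0.31 (adjusted p = 0.011, and not called with normexp background correction, at -0.91). The cyclin-dependent kinase inhibitor Cdkn1a read 4.30, 4.44 and 4.39 against 5.47, 4.29 and 3.52 (difference -0.05 ± 0.43, adjusted p = 0.94), with the controls spread widely around even AOM arrays. The p53 calls were 2 without AOM replicate 2 and 3 without control replicate 1.

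Keratins were higher at 6 of 15 tested and none was lower, with a median difference of 1.05 that was 0.64 without AOM replicate 3. Of the 15, 3 were dim on every control array. Krt36, a keratin of hair and tongue papillae, read 0.02, 3.28 and 3.63 in AOM, was not well above background on any control array, and was at least 75.1-fold higher (adjusted p = 0.0033). Krt35, another hair keratin, was at least 15.3-fold higher (adjusted p = 0.0026). Krt17, a keratin of basal and wounded epithelium, read -0.77, 3.83 and 3.32 against -2.09, -2.11 and -2.50, a difference of 4.36 ± 0.91 (adjusted p = 0.0087). AOM replicate 1 was the lowest AOM array in all 3 and lay above every control. For Krt36 and Krt35, dim on every control array, the lack of overlap follows from how they entered the test. Krt14 and Krt15, basal keratins, rose by 2.73 ± 0.48 and 3.96 ± 0.63 (adjusted p = 0.0051 and 0.0042). On a list of 27 markers of squamous epithelium, added after the keratins were seen, 12 could be tested, 8 were higher and 4 were not called. Those not called were Krt5 (0.80), Krt13 (-0.64), Lor (1.82) and Anxa8 (0.82). The higher ones include Ly6d, at 3.30, 4.15 and 3.73 against 1.08, 0.33 and -0.27 (difference 3.34 ± 0.40, adjusted p = 0.0023), and Trim29, at least 10.1-fold higher (adjusted p = 0.0022). Of the 12, 4 were dim on every control array. Krt35 (1.98) and Trim29 (0.96) were not called with normexp background correction. The defining genes Trp63, Ivl, Krt1, Krt10 and Krt4 were not well above background on all arrays of either group. The part of squamous cells, as may border the distal colon, in these values was not tested.

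**Figure D3:**
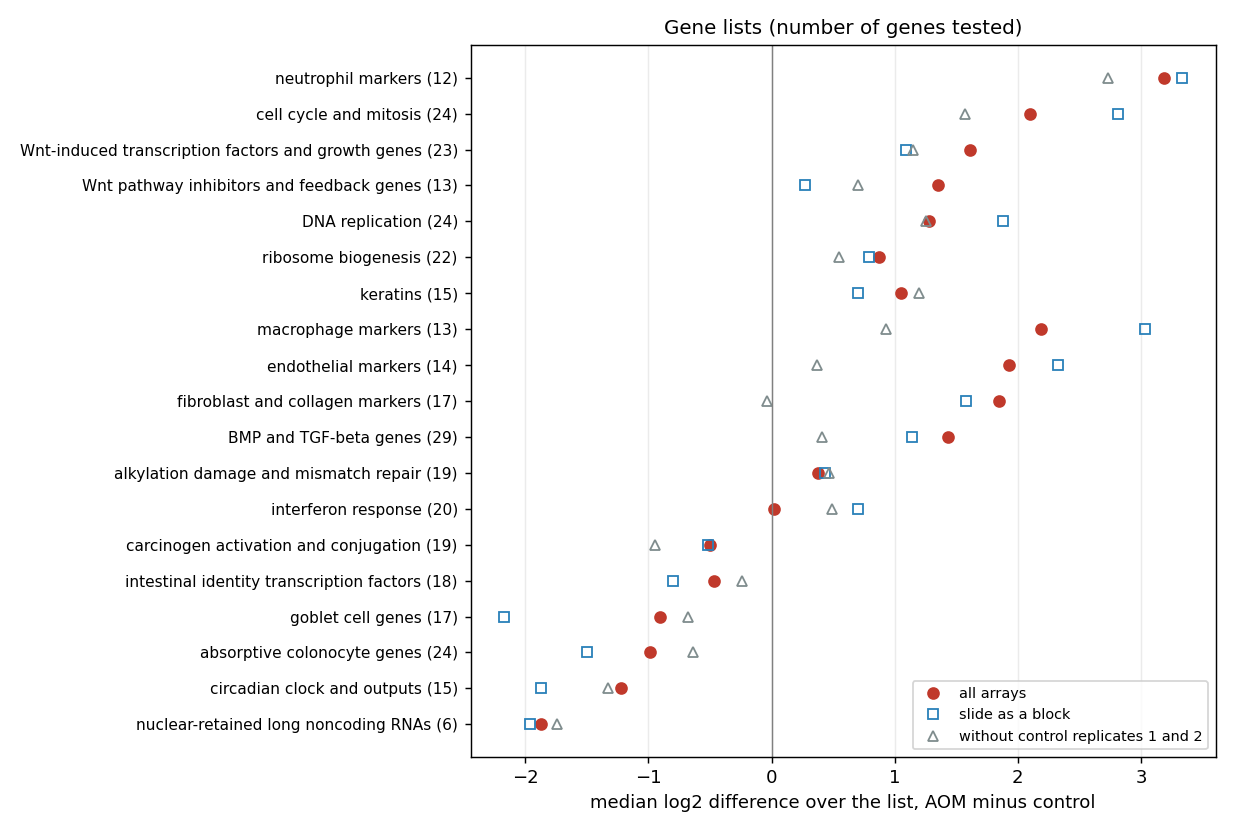
Median log2 difference, AOM minus control (horizontal axis), of 19 gene lists, with the number of genes tested in brackets; filled circles use all arrays, open squares a fit with slide as a block, and open triangles a fit without control replicates 1 and 2. The mitosis list lies at 2.10, 2.81 and 1.57, whereas the fibroblast list falls from 1.85 to -0.04 without those controls.

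Of 12 neutrophil markers tested, 11 were higher in AOM, but 5 of the 12 were not well above background on any control array and entered the test through their AOM signal. The list's median difference was 3.19, or 2.45 with dim members at their bound, and relative to all genes it ran from 0.26 to 3.56 over the scalings. The sum of the list's relative signals was 9.79 to 22.5 on AOM arrays and 0.541 to 2.19 on controls. S100a9, a calprotectin subunit, read 2.55, 3.49 and 3.84 in AOM and -1.95, -2.39 and -1.88 in control, a difference of 5.36 ± 0.78 (adjusted p = 0.0035). Trem1, a receptor that amplifies myeloid responses, was at least 2.26-fold higher (adjusted p = 0.0018), with a difference of -0.21 (adjusted p = 0.83) under normexp background correction. No array overlapped between the groups for S100a9. For Trem1 the lack of overlap follows from how it entered the test, through its AOM signal. The neutrophil attractants Cxcl5 and Cxcl1 were at least 18.5-fold and 8.5-fold higher (adjusted p = 0.0039 and 0.0066), and Il1b rose by 3.45 ± 0.77 (adjusted p = 0.011), and with normexp background correction Cxcl5 (2.14), Cxcl1 (1.02) and Il1b (1.25) were not called. Over 20 cytokines and chemokines tested, 10 were higher and 2 lower, and the calls were 7 without AOM replicate 3, control replicate 1 or control replicate 2. Il6 was not well above background on all arrays of either group.

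Antimicrobial genes were mixed, with 6 of 16 higher and 4 lower. Reg3g, a lectin that kills Gram-positive bacteria, read 2.48, 5.92 and 3.87 against -3.56, -0.73 and -1.51, a difference of 6.03 ± 1.22 (adjusted p = 0.0078). The antimicrobial calls were 5 without AOM replicate 2. Outside that list, Wfdc18, a secreted protein with a whey acidic protein domain, was high on every AOM array, at 5.69, 7.04 and 6.93, and at 0.63, 1.98 and -1.26 in control (difference 6.11 ± 0.70, adjusted p = 0.0022). Defb1, an epithelial defensin, was well above background on no AOM array and at least 6.82-fold lower (adjusted p = 0.0092), and was not called with normexp background correction (-2.02). Among 14 prostaglandin genes 5 were higher and 3 lower: the synthase Ptges rose by 1.77 ± 0.44 (adjusted p = 0.014, and not called with normexp background correction, at 0.59), and the receptor Ptger3 fell by 1.74 ± 0.37 (adjusted p = 0.0092). The prostaglandin calls were 4 without AOM replicate 2 or control replicate 1, and Ptgs2, the inducible cyclooxygenase, was not tested because it was dim.

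Interferon-response, MHC class II, T and NK cell, and B and plasma cell lists had no called member. By limma without adjustment, 1 of 20, 0 of 8, 0 of 10 and 0 of 11 members had p under 0.05, against 8192 of all 16976 genes tested. The B and plasma cell score, the mean deviation of the list from its own mean, was 2.23, 0.48 and -1.24 on the AOM arrays and -0.41, -1.78 and 0.72 on the controls, so it varied more within the groups than between them. Mast cell markers were higher at 5 of 10 tested. The chymase Cma1 read 2.92, 2.93 and 3.16 against 0.76, 0.73 and 1.47, a difference of 2.01 ± 0.38 (adjusted p = 0.0064), with no overlap and even AOM arrays. The mast cell calls were 2 without AOM replicate 2, AOM replicate 3 or control replicate 2, and 3 without control replicate 1.

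Markers of stroma and vessels were low in control replicates 1 and 2, and control replicate 3 lay with or near the AOM arrays. Fibroblast and collagen markers were called higher at 8 of 17, and their mean deviation was 0.90, 1.12 and 0.75 on the AOM arrays and -1.62, -2.31 and 1.16 on the controls. Col1a1, the main fibrillar collagen chain, read 2.50, 3.11 and 2.88 in AOM and -0.93, -1.08 and 2.18 in control, a difference of 2.77 ± 0.70 (adjusted p = 0.016). Its adjusted p was 0.055 without AOM replicate 2, 0.061 without control replicate 1, 0.054 without control replicate 2 and 0.00029 without control replicate 3. The fibroblast calls numbered 1 without AOM replicate 2, control replicate 1 or control replicate 2, 5 without AOM replicate 1 or AOM replicate 3, and 16 without control replicate 3. Endothelial markers were higher at 8 of 14, with scores of 1.16, 1.11 and 0.68 against -1.80, -1.87 and 0.72, and their calls numbered 1 without AOM replicate 2, control replicate 1 or control replicate 2, 5 without AOM replicate 1 and 13 without control replicate 3. Macrophage markers were higher at 9 of 13, with scores of 1.08, 0.98 and 0.97 against -1.04, -2.04 and 0.06. C1qa, a complement gene of tissue macrophages, read 4.01, 3.10 and 2.91 against 0.73, -1.24 and 2.09 (difference 2.82 ± 0.71, adjusted p = 0.015), and Arg1, an arginase of activated macrophages, was at least 11.1-fold higher (adjusted p = 0.0048), and not called with normexp background correction (1.41). The macrophage calls were 5 without AOM replicate 1 or AOM replicate 2 and 4 without control replicate 1. In scraped tissue, fewer cells of a type and less RNA per cell cannot be told apart. The part of stromal RNA in the gene lists above was not tested.

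**Figure D4:**
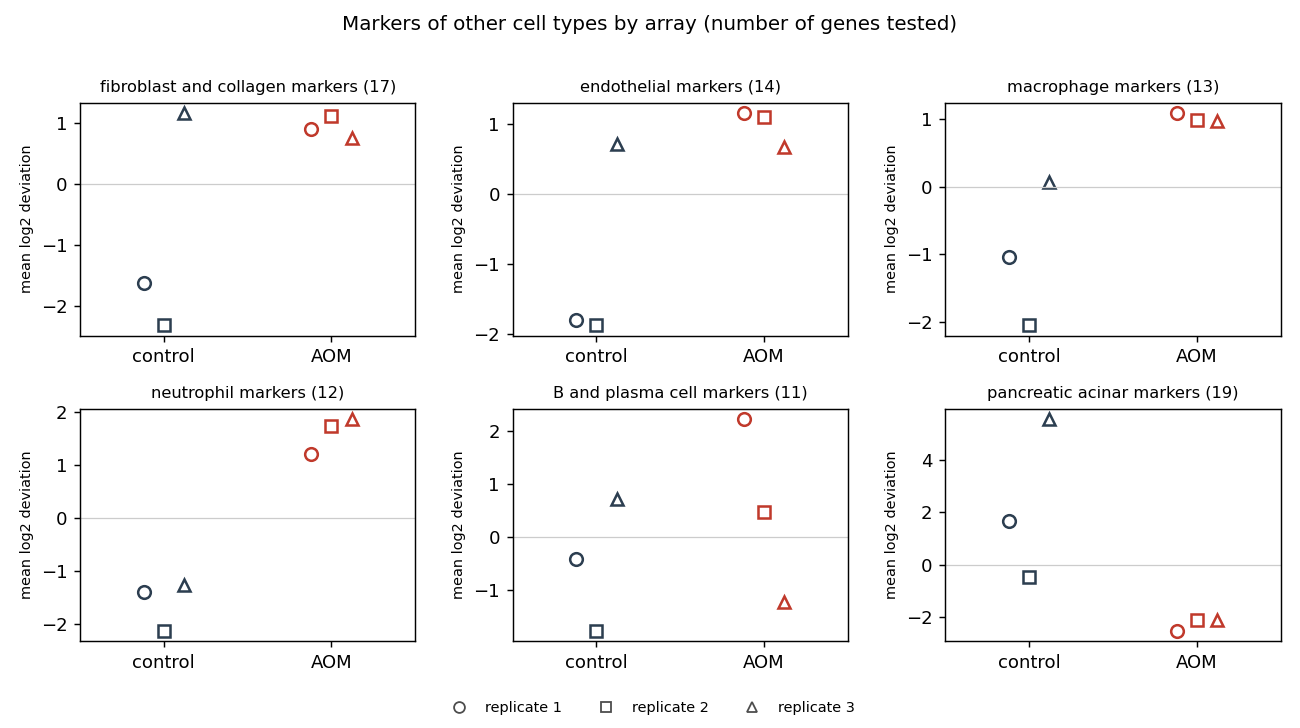
Mean log2 deviation of each array (vertical axis) from the mean of the 6 arrays, over 6 lists of markers of other cell types, for control and AOM arrays (horizontal axis); symbols mark replicates, panel titles give the number of genes tested, and each panel has its own scale. Control replicate 3 lies with the AOM arrays for fibroblast markers, at 1.16, and far above all other arrays for pancreatic markers, at 5.57.

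BMP and TGF-beta genes were higher at 14 of 29 and lower at 2, with a median difference of 1.43 that was 0.41 without control replicates 1 and 2 and, relative to all genes, 0.48 to 1.57 over the scalings. Bmp7, a BMP ligand, read 1.41, 2.59 and 1.90 in AOM and -2.56, -1.52 and 0.53 in control, a difference of 3.15 ± 0.64 (adjusted p = 0.0081). Inhbb, an activin subunit, read -1.37, -0.41 and -0.73 against -4.29, -4.53 and -2.57, a difference of 2.96 ± 0.58 (adjusted p = 0.0072). Averaging its probes gave 1.15 (adjusted p = 0.068) and normexp background correction 0.45 (adjusted p = 0.53). In both, control replicate 3 was the highest control and still below every AOM array. The BMP and TGF-beta calls were 7 without AOM replicate 2 and 10 without control replicate 2. Of 18 matrix metalloproteinase and remodelling genes, 14 were higher and none was lower, and 3 were dim on every control array. Mmp7, the matrilysin of crypt-base and tumour epithelium, read -0.49, 2.90 and 2.47 in AOM, was not well above background on any control array, and was at least 47.3-fold higher (adjusted p = 0.0023). Adam8, a membrane protease, read 2.20, 3.15 and 3.66 against -0.98, -1.16 and 0.20, a difference of 3.65 ± 0.47 (adjusted p = 0.0024). The remodelling calls were 7 without AOM replicate 2 or control replicate 1, 8 without control replicate 2 and 9 without AOM replicate 3.

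Circadian clock and output genes were lower at 9 and higher at 1 of 15 tested, with a median difference of -1.22, and the count of calls stayed between 9 and 11 when single arrays were left out. Tef, a PAR bZIP output factor, read 0.87, 1.36 and 1.90 in AOM and 3.16, 2.79 and 2.81 in control, a difference of -1.54 ± 0.25 (adjusted p = 0.0045). Dbp, another such factor, read 3.02, 4.15 and 4.36 against 5.62, 5.17 and 5.81, a difference of -1.69 ± 0.40 (adjusted p = 0.012). Nr1d2, a REV-ERB repressor, read -1.51, -0.67 and -0.29 against 0.88, 0.95 and 1.40, a difference of -1.90 ± 0.34 (adjusted p = 0.0058). AOM replicate 1 was the lowest of the 6 arrays in these 3 genes, so here it lay farther from the controls than the other AOM arrays did. Tef (-1.02) and Dbp (-1.15) were not called with normexp background correction. The labels used here give no time of day of collection.

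Of 6 nuclear-retained long noncoding RNAs tested, 4 were lower and none was higher, with a median difference of -1.87. Tug1 read -0.97, -0.57 and -0.51 in AOM and 0.72, 0.68 and 0.85 in control, a difference of -1.44 ± 0.25 (adjusted p = 0.0049), and its probes gave differences from -1.76 to -0.41. Malat1, an abundant RNA of nuclear speckles, read 4.53, 2.84 and 3.16 against 6.22, 6.01 and 4.94, a difference of -2.21 ± 0.62 (adjusted p = 0.022). Malat1 was not called (-1.65) with normexp background correction. Its adjusted p was 0.079 without AOM replicate 2, 0.063 without AOM replicate 3, 0.075 without control replicate 1 and 0.065 without control replicate 2, and the list's calls were 2 without AOM replicate 2, control replicate 1 or control replicate 2. Among tested genes without a symbol, 9.27% were called higher and 32.6% lower, against 19.6% and 14.2% of genes with a symbol. The part of RNA quality or of nuclear RNA content in these values was not tested.

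Genes of butyrate use, fatty acid oxidation and ketogenesis fell at 7 of 24 and rose at 1, with the list's median minus that of all genes between -0.58 and 0.09 over the scalings. Acadm, a fatty acid dehydrogenase of mitochondria, read 3.24, 3.61 and 3.24 in AOM and 4.46, 4.17 and 4.24 in control, a difference of -0.93 ± 0.18 (adjusted p = 0.0075) that was -0.36 and not called with normexp background correction. The list's calls were 4 without AOM replicate 2 or control replicate 1, and 5 without AOM replicate 3 or control replicate 2. Of 22 glycolysis and hypoxia genes, 5 were lower and 1 higher, among them Pdk1, which restrains pyruvate oxidation, at -0.14, 0.31 and 0.32 against 1.95, 1.39 and 1.38 (difference -1.41 ± 0.31, adjusted p = 0.0099), and not called with normexp background correction (-0.94). The glycolysis median minus that of all genes ran from -0.31 to 0.39 over the scalings, and the calls were 2 without AOM replicate 2 or control replicate 1 and 3 without AOM replicate 1, AOM replicate 3 or control replicate 2. Stress genes of the unfolded protein response rose at 4 of 15 and fell at 1. Trib3, a pseudokinase induced by amino acid shortage, read -0.69, -0.42 and -0.70 against -1.78, -3.07 and -2.36, a difference of 1.80 ± 0.37 (adjusted p = 0.0085) that was 0.65 and not called with normexp background correction. The unfolded protein calls were 2 without AOM replicate 2, AOM replicate 3, control replicate 1 or control replicate 3.

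The largest falls by size were pancreatic enzyme genes, and they rest on uneven controls. Cela3b, a pancreatic elastase, read -6.71, -6.16 and -6.32 in AOM and 3.51, -0.41 and 7.64 in control, at least 264-fold lower (adjusted p = 0.0095). The pancreatic score was -2.53, -2.13 and -2.12 on AOM arrays and 1.67, -0.45 and 5.57 on controls, and the summed relative signal of the list was 113 to 123 on AOM arrays and 475, 482 and 1673 on controls. Control replicate 3 was the highest by both measures. The list's median difference was -4.48, and -2.35 without control replicate 3. Of 19 such markers, 7 were called lower, 13 without control replicate 2, 3 without AOM replicate 2 or control replicate 1, and 4 without AOM replicate 1, AOM replicate 3 or control replicate 3. The part of tissue other than colon in the control samples was not tested. Outside this group, the cytochrome Cyp2c39 read -6.64, -5.41 and -6.31 in AOM and -2.28, -1.79 and -1.30 in control, at least 6.38-fold lower (adjusted p = 0.0017), and the manganese exporter Slc30a10 was at least 4.5-fold lower (adjusted p = 0.0029). Maob, a monoamine oxidase, read 0.48, 0.20 and -0.09 against 2.51, 2.66 and 2.50, a difference of -2.36 ± 0.26 (adjusted p = 0.0021), and -3.07 with slide as a block (adjusted p = 0.044). Of the rises, Afp, the alpha-fetoprotein gene, read -0.49, 0.98 and -1.11 in AOM, was not well above background on any control array, and was at least 13.2-fold higher (adjusted p = 0.0027). Sbspon, a secreted protein with somatomedin B and thrombospondin domains, was at least 18.9-fold higher (adjusted p = 0.0032), and the metallothionein gene Mt4 rose by 5.38 ± 0.90 (adjusted p = 0.0046). Afp (1.55) and Sbspon (2.29) were not called with normexp background correction.

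The same genes were set against the AOM/DSS neoplasms and the DSS epithelium, each tested directly against AOM. Differences in these contrasts are the fitted ones, without a bound for dim groups. Their size is not settled for a gene near background in either group. AOM/DSS differed from AOM at 6222 genes (36.7%), 2794 higher (16.5%) and 3428 lower (20.2%), and scaling to the array median gave 1737 higher and 5045 lower. The calls were 3503 without AOM replicate 1, 3914 without AOM replicate 2 and 2465 (14.5%) with slide as a block. These tissues also differ in collection, storage and AOM dose, which cannot be told apart from the disease state. Mmp7 was higher again in the neoplasms, at 5.27, 6.77 and 6.88 (AOM/DSS minus AOM 4.68 ± 0.83, adjusted p = 0.0052), and so was Wnt3, at -1.54, -0.61 and -1.24 (1.98 ± 0.32, adjusted p = 0.0036). Notum, at 2.18, 2.06 and 1.21 in AOM/DSS (2.09 ± 1.01, adjusted p = 0.12), and Sp5, at 2.16, 2.69 and 2.52 (1.83 ± 0.94, adjusted p = 0.14), were not called, and AOM replicates 2 and 3 were near the neoplasms in both. Krt35 had a difference of -0.02 ± 0.82 (adjusted p = 0.98). Slc5a8 was lower still in neoplasms, at -1.84, -1.20 and -0.44 (-1.99 ± 0.34, adjusted p = 0.0043), as was Sult1a1, at 0.54, 1.02 and -0.89 (-1.68 ± 0.39, adjusted p = 0.012).

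Endocrine genes were lower in AOM/DSS than in AOM: Chga was at -0.31, -1.58 and -1.76 in the neoplasms (-4.65 ± 0.41, adjusted p = 0.00032) and Cck at -4.75, -5.03 and -4.68 (-4.67 ± 0.28, adjusted p = 7.8e-05). The endocrine list was called lower at 11 of 18 members and higher at 1 in that contrast. Cdx2, not called between AOM and control, was lower in neoplasms than in AOM, at 1.23, 1.10 and 0.96 (-2.52 ± 0.31, adjusted p = 0.0013). Tug1 was higher in neoplasms than in AOM, at 1.09, 0.88 and 0.80 (1.61 ± 0.25, adjusted p = 0.0032), near the control values of 0.72, 0.68 and 0.85.

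DSS epithelium differed from AOM at 2 genes (0.0118%), with 2634 at an unadjusted p under 0.05. They were Wnt3, at -5.66, -6.27 and -5.53 in DSS (DSS minus AOM -2.71 ± 0.32, adjusted p = 0.036), and Bex4, at -4.96, -6.26 and -6.03 in DSS and -1.46, -0.59 and 0.11 in AOM (-5.10 ± 0.56, adjusted p = 0.036). Bex4, which encodes a brain-expressed X-linked family protein, lay outside the rule for named genes and was chosen after its values were seen. Whether Wnt3 or Bex4 was above background on the DSS arrays is not reported here, so the sizes of these differences are not settled. Without AOM replicate 1 the count was 219, and without AOM replicate 2 or AOM replicate 3 it was 0, with 1493 and 1860 genes at an unadjusted p under 0.05. With slide as a block it was 0 (0%), with 1389 at an unadjusted p under 0.05. With normexp background correction the count was also 0, with 2864 at an unadjusted p under 0.05. Several means were far apart without passing the test: Notum read -6.37, -6.27 and -5.93 in DSS (-5.91 ± 1.01, adjusted p = 0.086), and Krt35 read -6.38, -5.59 and -6.07 (-6.02 ± 0.82, adjusted p = 0.067). The DSS levels of Notum lay near its control levels, none of which was well above background, so the size of that difference is not settled. Isx and Cck were not called between DSS and AOM, with DSS minus AOM -1.04 ± 0.56 (adjusted p = 0.39) and 0.13 ± 0.28 (adjusted p = 0.85), and both were called in DSS against control (adjusted p = 0.03 and 0.0097), a contrast that shares the control arrays with AOM against control and called 97 genes (0.571%).

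**Figure D5:**
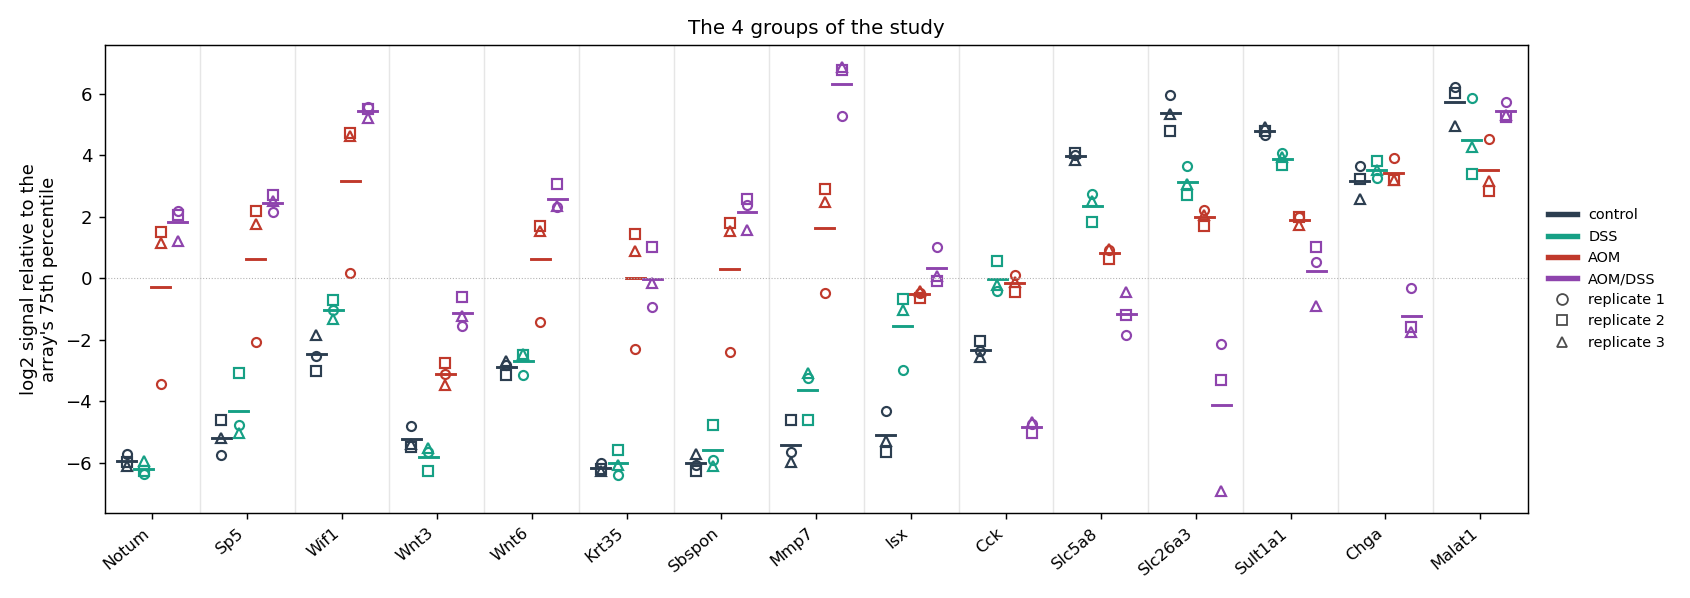
Levels (log2 signal relative to the array's 75th percentile, vertical axis) of 15 genes (horizontal axis) on the control, DSS, AOM and AOM/DSS arrays, 3 in each group; symbols mark replicates and bars group means. In Notum the DSS arrays, -6.37 to -5.93, lie with the controls, and in Cck they lie with the AOM arrays while AOM/DSS lies at -5.03 to -4.68.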

How the data were processed

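Labelled RNA of each sample was hybridised to its own one-colour Agilent array, and the authors deposited one scanner file per array. Per the file headers, the processed intensity values were made by version 10.7.3.1 of Agilent's Feature Extraction (10.7 per the submitters' processing notes). A deposited table of log2 values of the same 12 arrays was used as an alternative. Its columns share one distribution (median 6.17), and the authors' normalization of it is not stated in any source used here.

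Control spots and outlier-flagged spots were left out, spots of one probe were averaged, and log2 processed intensities were scaled to each array's 75th percentile. Probes well above background on all 3 arrays of AOM or of control were kept (22585 of 41174). Probes were named through their accession in RefSeq's GRCm38.p6 table: 27198 probes matched a symbol and 13976 did not. The probe with the highest mean stood for a gene, which left 16976 genes. Differences were tested with limma 3.58.1 in R 4.3.3 (lmFit on the group means of all 12 arrays, eBayes), with Benjamini-Hochberg adjustment and a threshold of 0.05. The residual degrees of freedom were 8. The number of arrays limits the precision. The fit was tested on simulated data.

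Members and gene lists were chosen with earlier results of these data known, and no list was given a test of its own. Genes to name were up to 15 called genes with the largest rise and 15 with the largest fall (with a symbol, no overlap between groups, well above background in the higher group, not saturated), up to 6 called members of each list by size of difference (or 4 by smallest p in lists without a call), a panel of readouts, and the carcinogen, alkylation repair and Wnt lists; part of these are printed, and some are not reported here. Same-numbered AOM and control arrays did not deviate together (correlations 0.29, -0.04 and -0.04), so the numbers do not pair samples. Alternatives were background correction, scaling, quantile normalization, the filter, the probe rule, slide and replicate blocks, a covariate and leaving out arrays.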

Additional observations from a re-analysis of the deposited data

How the results depend on the processing

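Of the 93 called genes named above, all kept call and direction with scaling to the array median, scaling to probes with a symbol, quantile normalization, the deposited log2 table, no filter on dim probes, the filter on any of the 4 groups, slide as a random block and the replicate block. For slide as a random block the estimated correlation within a slide was -0.151. That fit called 8517 genes, took out no level shared by a slide, and is no check on slide. Averaging a gene's probes ended the call of Inhbb (1.15, adjusted p = 0.068), and a fit of only the 6 arrays ended those of Col1a1 (adjusted p = 0.053) and Mycn (adjusted p = 0.061). With normexp background correction 50 kept their call, 4 changed sign (Ascl2 -0.07, Nts -0.37, Trem1 -0.21, Wnt3 -0.57), and 39 were no longer called: Acadm, Adh1, Afp, Aqp4, Arg1, Atoh1, Cck, Cxcl1, Cxcl5, Dbp, Defb1, Gins2, Il1b, Inhbb, Isx, Jag2, Krt35, Lfng, Malat1, Mycn, Nat2, Notum, Pax6, Pdk1, Ptges, Sbspon, Slc16a1, Sox17, Sox4, Sp5, Sult1b1, Tef, Tiam1, Tnfrsf19, Trib3, Trim29, Trp53inp1, Vdr and Wnt6. With slide as a fixed block 4 stayed called (Afp, Maob, Slc26a3 and Sult1a1), without control replicates 1 and 2 together 4 (Cyp2c39, Ly6d, Trem1 and Wfdc18), and with the median of probes without a symbol as a covariate 10, each without a change of sign. The lone control left without control replicates 1 and 2 was assumed to vary like the other groups. The cause of these losses was not tested. Of uncalled genes, Cdkn1a changed sign with normexp (0.50), median scaling (0.12), slide as a random block (0.09), the covariate (0.14) and without control replicates 1 and 2 (0.86), and ran from -0.50 to 0.47 without 1 array. Chga was at -0.40 with slide as a fixed block and -0.01 to 0.53 without 1 array, Mki67 at -0.50 without control replicates 1 and 2 and -0.11 to 0.87 without 1 array, and Epcam at 0.34 with normexp. Zbtb46, called only with slide as a fixed block and in the fit of the 6 arrays, was at -0.87 with normexp.

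Between AOM and control, 2826 genes were called with normexp, 5 with slide as a fixed block, 38 with the covariate, 30 without control replicates 1 and 2, and 2658 to 6302 when 1 array was left out. With the replicate block, whose numbers are not known to pair samples, 5852 were called. Between AOM/DSS and AOM the counts were 1757, 2465 and 946 with normexp, the slide block and the covariate, and 3503 to 4859 without 1 AOM array. Between DSS and AOM, where 2 genes were called, limma called 0 with normexp, no filter, the fixed slide block, the replicate block or the covariate (2864, 3464, 1389, 2878 and 1023 at an unadjusted p under 0.05), 1 with the filter on all 6 arrays, 5 with scaling to probes with a symbol, 87 with slide as a random block, and 0 to 219 without 1 AOM array. A gene not well above background on any AOM or any control array has only a bound in the comparison of those groups.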
